A study of Sus scrofa with 15 samples.

Results

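Knockdown of miR-133 with the lentiviral vector Lv133KD was set directly against the vector labelled Lv143KD in IPEC-J2 cells, an untransformed epithelial line taken from the small intestine (jejunum) of a newborn piglet. The comparison rests on 6 of the 15 RNA sequencing libraries of the study, 3 libraries of Lv133KD and 3 of Lv143KD, chosen by their treatment label and paired by the replicate number in that label. A further 3 libraries of the knockdown control vector Lv3NC, from the same table of 9 knockdown libraries, serve as a reference level and enter no test here. The other libraries hold OV143, an overexpression vector for miR-143, and its control Lv20NC. All groups are the same cell line carrying a lentiviral vector, and the labels name no further treatment, dose or time after transduction. Neither the promoter of the vectors nor whether a group is 1 transduced culture or several is given in the sources used here. The design text names the same miRNA, miR-133, for both knockdown vectors, whereas the sample label of the second reads Lv143KD. The target of Lv143KD is therefore unsettled, and the comparison is either of knockdowns of different miRNAs or of different vectors against the same one. The libraries hold no entry for a miRNA, so the level of neither miRNA was checked.

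MicroRNAs are short RNAs that guide Argonaute proteins to matching sites, mostly in the 3′ ends of messenger RNAs, and lower the level or translation of those transcripts. A lentiviral knockdown vector usually expresses a decoy or antisense transcript that occupies the miRNA, so that its direct targets would be released. miR-133 is best known from skeletal and heart muscle, where one of its genes lies within MIB1, and miR-143 from smooth muscle and the connective tissue of the gut, where it is made from the transcript CARMN. In epithelial cells both have been studied for targets in growth factor signalling and the actin skeleton.

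Expression was given as FPKM, fragment counts scaled to transcript length and to the fragments sequenced, which allows levels of different genes to be compared per length. The 6 libraries summed to between 486086 and 515792 FPKM over all genes and held 11250 to 11557 genes at 1 FPKM or more. The depth in reads is unknown, since FPKM does not keep it. Markers of epithelium were high in all 6 libraries: KRT8, a keratin of simple epithelia, lay between 520.0 and 887.5 FPKM, EPCAM between 266.8 and 311.4, and CDH1, which encodes E-cadherin, between 158.5 and 183.1. CDX2, the transcription factor that defines intestinal epithelium, was at 0 to 0.06 FPKM, and villin (VIL1) at 0.98 to 2.65, so the intestinal identity of the line is not seen in these 2 genes. Of 9 fibroblast markers 8 stayed under 1 FPKM in all 6 libraries, PTPRC, the pan-leukocyte marker, was at 0 while LCP1 and CD68 of the same list read 9.48 to 14.97 and 1.33 to 2.35 FPKM, and ACTA2 and MYH11, which define smooth muscle, did not pass 0.22 FPKM. Of the endothelial list, VWF did not pass 0.25 FPKM and CDH5 read 8.28 to 9.85. The summed smooth muscle list, nearly all of it TAGLN, spanned 62.9 to 179.6 FPKM in Lv133KD and 78.6 to 135.2 in Lv143KD, so the groups overlapped.

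Libraries with the same replicate number resembled each other more closely than libraries with the same vector, in replicates 1 and 2. The median absolute difference over 11528 genes, on the log2(FPKM + 1) scale, was 0.06 within pair 1 and 0.06 within pair 2, against 0.10 to 0.17 among the 3 Lv133KD libraries. Pair 3 stood apart, with a median absolute difference of 0.19. Lv143KD replicate 3 was nearest to the control library Lv3NC replicate 3, at 0.11, and lay 0.19 to 0.28 from the other 7 libraries. Lv133KD replicate 3 was nearest to Lv143KD replicate 1, at 0.09. The SD over genes of the within-pair difference was 0.11 in pair 1, 0.10 in pair 2 and 0.31 in pair 3, and 4, 2 and 86 genes differed past 2-fold in the pairs in turn. Of the 86 genes in pair 3, Lv3NC replicate 3 was nearer to Lv143KD replicate 3 than to Lv133KD replicate 3 for 82 (95.3%), against 75.3% of all tested genes. The main results below are therefore given pair by pair. The fit was repeated without pair 3 and without each single library.

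**Figure D1:**
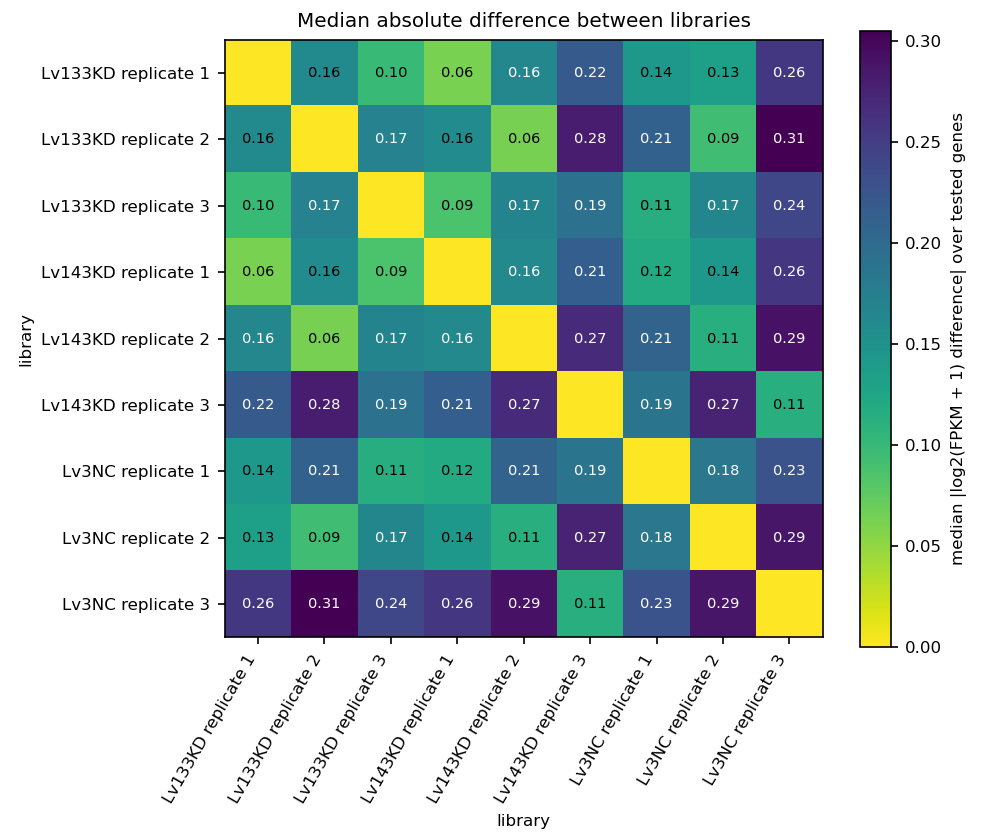
Median absolute difference in log2(FPKM + 1) over the tested genes (colour and printed number, yellow for alike and purple for far apart) between each pair of the 9 knockdown-table libraries, named on both axes. Replicates 1 and 2 of the knockdown vectors pair closely, at 0.06, while Lv143KD replicate 3 lies nearest to Lv3NC replicate 3, at 0.11.

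**Figure D2:**
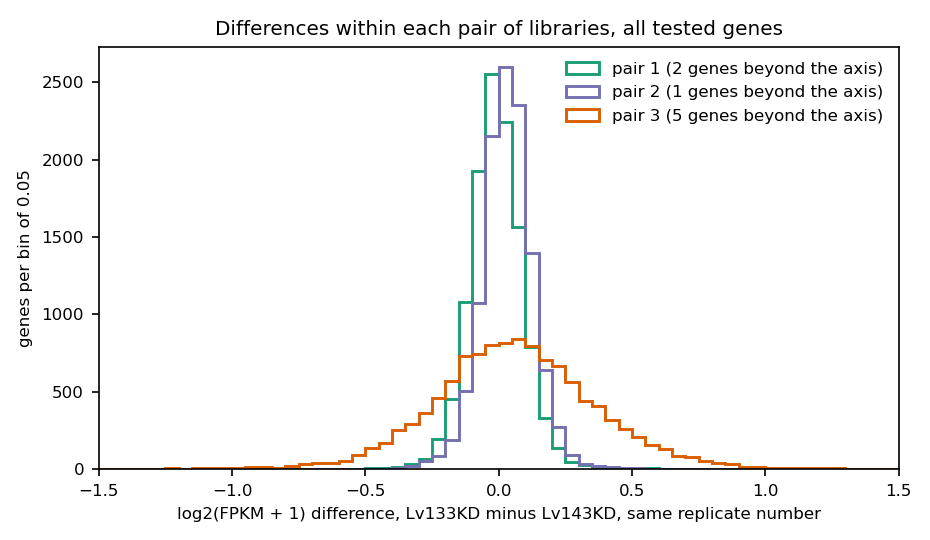
Number of genes (vertical axis, bins of 0.05) by the difference in log2(FPKM + 1) between Lv133KD and Lv143KD libraries of the same replicate number (horizontal axis), 1 outline per pair. The outline of pair 3 is lower and broader than the others, with an SD of 0.31 against 0.11 and 0.10.

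No gene differed between the knockdowns past the threshold. The paired fit (limma with the replicate number as a block) tested 11528 of 19000 listed genes and called 0 at an adjusted p under 0.05 (percent called 0), and the smallest adjusted p was 0.774. An unadjusted p under 0.05 was reached by 268 genes (2.32%), fewer than the 576.4 expected at random. Of the 268, 194 (1.68%) were higher in Lv133KD and 74 (0.642%) lower. The fit without the block called 0 as well, with 22 genes at an unadjusted p under 0.05. The mean difference was above 0 for 58.5% of genes, and this share moved to 45.0% when the libraries were scaled to equal medians, so no direction is read from it.

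The intervals show how large a difference these libraries leave room for. The median standard error of the log2(FPKM + 1) difference was 0.08. The 95% interval of that difference lay wholly within 2-fold in either direction for 11486 genes (99.6%) and within 1.5-fold for 10973 (95.2%). For 42 genes the interval reached past 2-fold. On the same scale, a mean difference past 1.5-fold was seen in 6 genes, and past 2-fold in 2, SLC2A2 and 1 predicted gene. These folds are of FPKM + 1, which understates differences at low levels. BGI_novel_G000267, with means of 0.74 FPKM in Lv133KD and 1.58 in Lv143KD, gave -0.58. With 0.1 added in place of 1 it gave -1.05, and the share of genes with an interval within 2-fold was 98.9%. A p above the threshold does not show that a gene was equal under both vectors, and for each gene named below the interval or the spread over the pairs sets that limit.

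SLC2A2 had the largest mean difference on the log2(FPKM + 1) scale among genes with a symbol. It encodes GLUT2, the low-affinity glucose and fructose transporter of the liver, the pancreatic beta cell and the basolateral side of the enterocyte (NCBI Gene 397429, Sscrofa11.1 chr13:109592595-109614105). Its level was 74.9, 134.8 and 137.0 FPKM in Lv133KD replicates 1 to 3, and 167.6, 357.8 and 193.9 FPKM in Lv143KD. The groups did not overlap, and the highest library was Lv143KD replicate 2. Without overlap, 64 of all tested genes (0.555%) lay lower in Lv133KD and 244 (2.12%) higher. In Lv3NC the gene stood at 113.2, 124.6 and 170.8 FPKM, which overlaps both knockdown groups.

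The Lv143KD library exceeded its Lv133KD partner 2.22-fold, 2.64-fold and 1.41-fold in pairs 1 to 3, taken on the log2(FPKM + 1) scale, and pair 3 gave the smallest ratio. The group means were 115.6 ± 35.2 FPKM in Lv133KD and 239.7 ± 103.1 in Lv143KD (SD, n = 3 each). The mean paired log2 difference was -1.02 with a standard error of 0.17 and a 95% interval from -1.43 to -0.61. Its unadjusted p in limma was 0.000989, second among all genes, and the adjusted p was 0.774. Without replicate 3 the difference was -1.28 and the adjusted p 4.97e-06, so the call depended on that pair. The sign held under all 19 alternatives, over which the adjusted p ran from 4.97e-06 to 1.00. SLC2A2 was already known from earlier results of these data to lead by p, and its rank is no independent support.

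Genes beside SLC2A2 on chromosome 13 did not share its difference. EIF5A2, a translation factor whose gene lies on one side, had a mean log2 difference of -0.04, and TNIK, a kinase of Wnt signalling on the other, of -0.03. Both intervals lay within 0.22 of 0, from -0.21 to 0.13 and from -0.21 to 0.15. Of the 12 sugar transporters tested of 21 listed, 7 lay higher in Lv133KD and 5 lower, with a median log2 difference of 0.01 that turned to -0.03 with equal medians. SLC2A3, which encodes the high-affinity transporter GLUT3, read 7.45, 8.01 and 8.33 FPKM in Lv133KD and 7.14, 7.79 and 5.81 in Lv143KD, and SLC2A8 gave a mean log2 difference of 0.15. SLC2A1, the basal glucose transporter of most cells, differed by 0.02, SLC2A5, the fructose transporter, by 0.05 and SLC5A1, the sodium-coupled glucose transporter of the brush border, by 0.00 on the same scale.

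The pattern of SLC2A2 over the 6 libraries was most like that of LOC110261354, with a Pearson correlation of 0.99 of log2(FPKM + 1) over 6 libraries, among tested genes averaging 5 FPKM or more. LOC110261354 read 4.61, 5.41 and 5.57 FPKM in Lv133KD and 5.94, 8.23 and 6.42 in Lv143KD, without overlap. Its mean log2 difference was -0.34, with an interval from -0.57 to -0.11. It lies at chr6:49348270-49349223 and overlaps TGFB1, whose own difference was -0.03. Strand use is not given, so reads in the overlap could come from either gene. EIF3J, CCDC34, LOC100739719 and UCHL5 followed at 0.92, 0.92, 0.90 and 0.90, with mean differences of -0.08, -0.09, -0.06 and -0.03. These correlations pick the closest of many genes and are descriptions only.

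In the table of the overexpression libraries, which was normalised separately, SLC2A2 stood at 13.9, 13.9 and 14.9 FPKM in Lv20NC and at 12.4, 6.45 and 12.9 in OV143. All 6 values lie under the lowest of the 9 knockdown-table libraries, 74.9 FPKM, and with separate normalisation no test was made of that gap. KRT8 spanned 615.5 to 1030.3 FPKM there, overlapping its range in the knockdown table. EPCAM did not overlap, at 485.6 to 717.9 FPKM there against at most 359.0 in the knockdown table. LOC110261354 read 0.45 to 2.07 FPKM there and 4.61 or more in the knockdown table. A gap between the tables was thus not particular to SLC2A2.

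**Figure D3:**
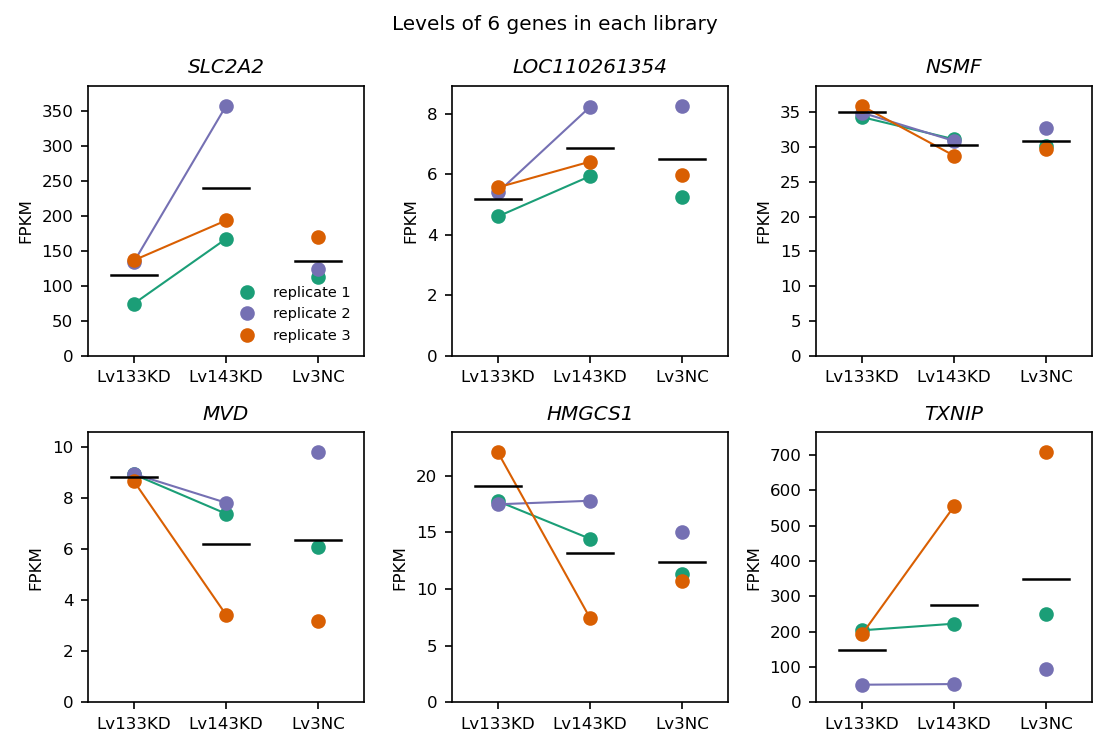
FPKM (vertical axis, linear and starting at 0 in each panel) of 6 genes in the Lv133KD, Lv143KD and Lv3NC libraries. Points are libraries coloured by replicate number, lines join the knockdown libraries of a pair and black bars are means of 3. SLC2A2 and LOC110261354 separate in every pair, NSMF separates by a narrow margin, and MVD, HMGCS1 and TXNIP differ mainly in pair 3.

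Many further genes separated the groups in every pair. Of all tested genes, 244 (2.12%) lay higher in Lv133KD without overlap and 64 (0.555%) lower, and 4 of the former are given here. HOXB13, a homeobox gene that marks the posterior gut and prostate, read 2.52, 2.38 and 2.42 FPKM in Lv133KD and 1.98, 1.84 and 1.78 in Lv143KD. The groups did not overlap and the spread within each was narrow, with a mean log2 difference of 0.26 (interval 0.08 to 0.45). NSMF, which encodes a messenger between synapse and nucleus, was at 34.3, 34.9 and 35.9 FPKM against 31.1, 30.9 and 28.7, again without overlap, with a difference of 0.21 (interval 0.04 to 0.38). CBX8, a subunit of Polycomb repressive complex 1, stood at 2.29, 2.60 and 2.28 FPKM against 1.4, 2.06 and 1.6, a difference of 0.34. C12H17orf58 was at 1.25, 1.38 and 1.27 against 1.11, 0.79 and 0.90 FPKM. All 4 lay higher in Lv133KD, and each had an adjusted p of 0.774 in limma.

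PRRG2, a membrane protein with a Gla domain, lay the other way, at 1.45, 1.94 and 1.64 FPKM in Lv133KD and 2.86, 1.98 and 2.31 in Lv143KD, with pair 2 nearly level at -0.02. TPGS1, a subunit of the tubulin polyglutamylase complex, gave log2 differences of 0.34, 0.35 and 0.28 in the pairs, with the lowest level in replicate 3 of both groups, and the groups overlapped. CCDC167 had the same shape, with 29.6, 42.3 and 21.3 FPKM in Lv133KD and 24.0, 38.0 and 14.8 in Lv143KD. HOXB13, C12H17orf58, PRRG2 and NSMF were named because earlier results of these data ranked them by p.

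Predicted genes without a symbol made up 142 of the 11528 genes tested and 6 of the 10 smallest p-values. BGI_novel_G000002 had the largest difference of all on the log2(FPKM + 1) scale. It stood at 83.7, 97.9 and 113.8 FPKM in Lv133KD and 144.6, 767.4 and 719.2 in Lv143KD. Its Lv3NC libraries read 281.6, 93.0 and 683.1 FPKM, so the control group alone spanned nearly the whole range. BGI_novel_G000267, with the smallest p, was at 0.48, 0.64 and 1.09 FPKM against 1.2, 1.69 and 1.86, near the filter of 1 FPKM. What either predicted gene encodes is not given in the table.

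Leaving out pair 3 raised the number of calls from 0 to 7 and leaving out pair 1 raised it to 1, while without pair 2 none was called. The 7 calls were SLC2A2, LOC102167522, CCL20 and 4 predicted genes. CCL20, a chemokine that draws dendritic cells and lymphocytes to the gut epithelium, read 81.4, 18.0 and 62.5 FPKM in Lv133KD and 108.1, 23.1 and 52.9 in Lv143KD, lower in pairs 1 and 2 and higher in pair 3. LOC102167522 showed the same turn, with log2 differences of -0.62, -0.68 and 0.28. These 2 genes were named after their values were seen. With 2 pairs left, the spread of a gene is estimated mostly from the other genes.

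Among the genes with the largest differences that average 5 FPKM or more and whose groups did not overlap, many owed theirs mostly to pair 3, unlike SLC2A2, LOC110261354 and BGI_novel_G000002. MVD, an enzyme of the mevalonate pathway, was at 8.94, 8.96 and 8.67 FPKM in Lv133KD and 7.4, 7.83 and 3.44 in Lv143KD. HGH1, a factor for folding of elongation factor 2, read 20.4, 23.9 and 21.0 FPKM against 19.3, 20.1 and 9.89. AIMP2, a scaffold of the multi-synthetase complex, read 18.6, 18.6 and 17.2 against 17.1, 15.7 and 9.72. In each the Lv133KD libraries were level and Lv143KD replicate 3 was far below the rest, as was Lv3NC replicate 3, at 3.21, 7.31 and 7.06 FPKM. MRM1, a mitochondrial rRNA methyltransferase, and UAP1L1 showed the same shape, with pair 3 differences of 0.88 and 0.87.

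Of the 8 genes that lay lower in Lv133KD by this rule, 4 were the mirror image. YPEL5 read 25, 24.7 and 24.95 FPKM in Lv133KD and 26.6, 25.1 and 41.2 in Lv143KD, with 50.7 in Lv3NC replicate 3. ARHGAP10, a GTPase-activating protein, STX1A, a syntaxin of secretory vesicles, and DTNA, a dystrobrevin, had log2 differences of -0.50, -0.52 and -0.47 in pair 3 and of -0.15 to -0.01 in pairs 1 and 2. LYRM1 was closer to level over the pairs, with -0.20, -0.16 and -0.25, a mean of -0.21 and an interval from -0.38 to -0.03.

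Literature targets of the miRNAs lay about equally above and below 0. Of 36 tested targets of miR-133, 17 lay higher in Lv133KD and 19 lower, with a median log2 difference of 0.00, and of 39 tested targets of miR-143, 18 lay higher and 21 lower, with a median of -0.01. The median over all tested genes was 0.02, and 0 targets were called. An unadjusted p under 0.05 was reached by 3 of the 36 and 4 of the 39, beside 2.32% of all tested genes. The direct targets that define each miRNA in the literature gave tight intervals: CDC42 and RHOA, small GTPases of the actin skeleton listed for miR-133, differed by 0.02 (interval -0.13 to 0.16) and 0.03 (-0.11 to 0.17). EGFR, the epidermal growth factor receptor, differed by -0.10 with its low value in pair 3.

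FSCN1, the actin-bundling protein fascin and a listed target of both miRNAs, read 40.6, 39.3 and 36.6 FPKM in Lv133KD and 37.9, 35.0 and 29.6 in Lv143KD. Its log2 differences of 0.10, 0.16 and 0.30 shared a sign, with a mean of 0.18 and an interval from 0.01 to 0.36. Of the miR-143 list, MAPK7, the kinase ERK5, gave a mean log2 difference of 0.24 (interval -0.02 to 0.49), HK2, hexokinase 2, 0.11 (interval -0.05 to 0.27), and ERBB3, a receptor of the EGF receptor family, 0.01 (interval -0.18 to 0.19). The groups of all these genes overlapped.

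Genes that make or use miRNAs did not separate the vectors either. Of 21 tested, 14 lay higher in Lv133KD and 7 lower, with a median of 0.02 (-0.02 with equal medians) and 0 called. XPO5, the nuclear exporter of precursor miRNAs, read 64.6, 73.8 and 66.01 FPKM in Lv133KD and 62.7, 70.4 and 56.6 in Lv143KD. DROSHA and DGCR8, the nuclear processing complex, and DICER1, the cytoplasmic one, had pair 3 differences of 0.65, 0.57 and 0.57 against -0.05 to 0.25 in pairs 1 and 2. MIB1, a host gene of miR-133, gave -0.003 and its paralogue MIB2 0.10, with intervals from -0.18 to 0.18 and from -0.07 to 0.28. CARMN was not matched in the table and is not analysed here.

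Genes known from earlier results to separate both knockdown groups from Lv3NC differed little between the knockdowns. FOPNL, a centrosomal protein, read 11.4, 9.42 and 11.3 FPKM in Lv133KD and 11.7, 10.9 and 9.51 in Lv143KD, against 3.42, 4.55 and 4.22 in Lv3NC. ATP6V1H, a subunit of the vacuolar proton pump, lay within 45.4 to 47.0 FPKM in all 6 knockdown libraries and at 25.5, 28.9 and 26.3 in Lv3NC. WIF1, a secreted Wnt inhibitor, had 7.08, 6.37 and 8.34 FPKM in Lv133KD and 6.58, 6.86 and 7.91 in Lv143KD. The differences between the vectors were 0.003, -0.007 and 0.02 log2 units, with intervals within 0.25 of 0. Both vectors share the controls behind those earlier results, so the likeness to each other is the value given here, not the common distance from Lv3NC.

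AACS, which makes acetoacetyl-CoA for lipid synthesis, differed by 0.11 (interval -0.12 to 0.34). MT-2B, a metal-binding metallothionein, gave -0.04 (interval -0.19 to 0.11), with 705.5, 280.0 and 635.9 FPKM in Lv133KD and 673.4, 301.8 and 667.9 in Lv143KD. Its low value in replicate 2 was common to both groups, and Lv3NC read 477.3 FPKM in that replicate and 977.7 and 979.9 in the others.

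Cholesterol biosynthesis genes showed the largest list median, and its size came from pair 3. These enzymes turn acetyl-CoA into cholesterol through mevalonate and squalene and are driven together by the sterol sensor SREBP2. All 21 found of 22 listed were tested, 17 lay higher in Lv133KD and 4 lower, and 7 were higher in all 3 pairs, as were 19% of all tested genes. The median log2 difference was 0.25, with medians of 0.13, 0.00 and 0.75 in pairs 1 to 3 and 0.09 without pair 3. In pair 1, 18 of the 21 lay higher in Lv133KD, where 5177 of all 11528 genes did, whereas pair 2 gave 11 higher and 9 lower. No member was called, and 3 of the 21 had an unadjusted p under 0.05, beside 2.32% of all tested genes.

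HMGCS1, the enzyme before the rate-limiting step, read 17.8, 17.5 and 22.1 FPKM in Lv133KD and 14.4, 17.8 and 7.45 in Lv143KD. ACAT2, the first enzyme of the route, was at 50.6, 41.3 and 57.6 FPKM against 45.8, 37.0 and 33.0, with differences of 0.14, 0.16 and 0.78. FDPS, which makes farnesyl diphosphate, read 66.2, 68.6 and 72.0 against 59.4, 65.1 and 39.0 FPKM. The low library was Lv143KD replicate 3 in each, and Lv3NC replicate 3 lay beside it, at 10.7, 31.3 and 36.3 FPKM. Against that control library the list's median was 0.60 for Lv133KD replicate 3 and -0.09 for Lv143KD replicate 3. SQLE, squalene epoxidase, and MSMO1, a sterol methyl oxidase, had pair 3 differences of 0.97 and 0.98 and pair 2 differences of 0.00 and -0.01. In Lv3NC replicate 3 these genes read 25.1 and 24.8 FPKM. Those values lay between the 19.6 and 17.2 of Lv143KD replicate 3 and the 39.4 and 35.0 of Lv133KD replicate 3.

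**Figure D4:**
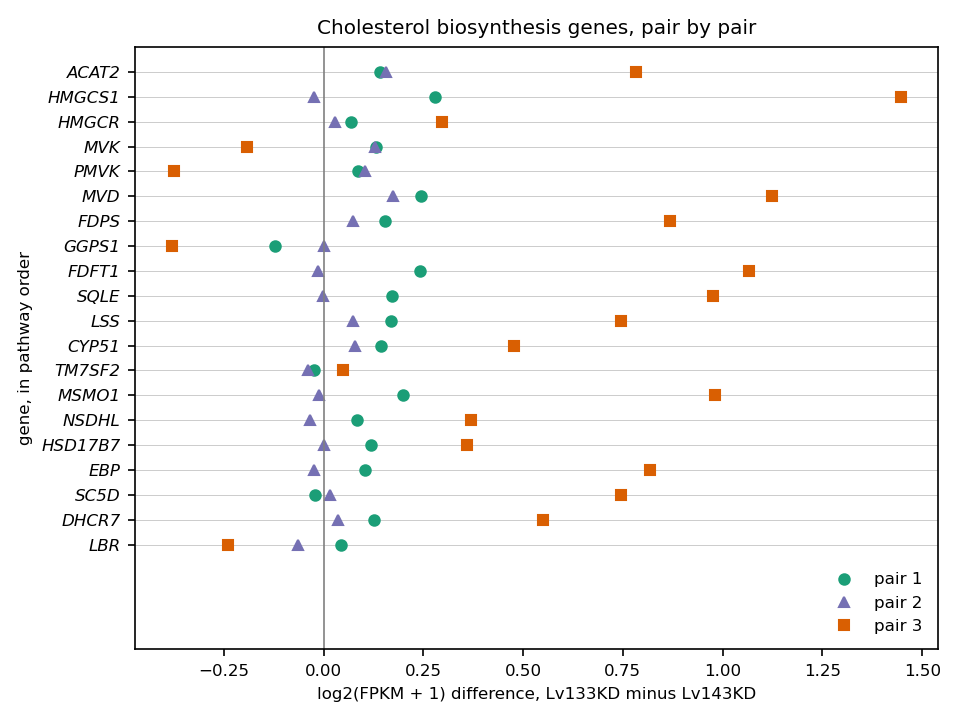
Difference in log2(FPKM + 1), Lv133KD minus Lv143KD (horizontal axis), for 20 of the 21 tested cholesterol biosynthesis genes (vertical axis, in pathway order), 1 symbol per pair. Pair 3 reaches 1.45 for HMGCS1 and is below 0 for 4 genes, while pair 2 stays close to 0, with a median of 0.00.

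The other lipid lists lay the same way by less. Of 19 tested genes for sterol sensing, uptake and efflux, 14 lay higher and 5 lower, with a median of 0.12 and 0.03 without pair 3. SOAT1, which esterifies cholesterol, read 12.8, 15.4 and 13.7 FPKM in Lv133KD and 12.6, 14.9 and 8.08 in Lv143KD, while ABCA1, which exports cholesterol, gave -0.19 with a sign shared by the pairs. Of 17 fatty acid synthesis genes 13 lay higher and 4 lower, with a median of 0.11 and 0.02 without pair 3. FASN, fatty acid synthase, read 52.0, 52.7 and 56.3 FPKM against 44.5, 50.6 and 32.7, without overlap (difference 0.35, interval 0.01 to 0.69), and ACSS2 and ELOVL1 had pair 3 differences of 0.59 and 0.57 beside 0.02 to 0.07 in pairs 1 and 2. None of these genes was called.

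Genes of DNA replication had the second largest list median, again from pair 3. Of 40 tested, 37 lay higher in Lv133KD and 3 lower, with a median of 0.24 and pair medians of 0.00, 0.07 and 0.66. Without pair 3 the median was 0.02, beside 0.01 for all tested genes without that pair. MCM5 and MCM7, parts of the replicative helicase, and TK1, thymidine kinase, had pair 3 differences of 1.46, 1.46 and 1.37. MCM7 read 78.9, 82.3 and 68.8 FPKM in Lv133KD, 75.3, 74.5 and 24.3 in Lv143KD and 58.3, 80.3 and 30.3 in Lv3NC. Lv143KD replicate 3 and Lv3NC replicate 3 were thus the low libraries, and the list's medians against that control library were 0.67 for Lv133KD replicate 3 and -0.10 for Lv143KD replicate 3.

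Genes of G2 phase and mitosis lay the opposite way, with 4 of 34 higher in Lv133KD, 30 lower and a median of -0.07. Pair 3 again held most of it, at -0.20, beside 0.01 and -0.03. HMMR, a spindle protein, read 22.8, 26.4 and 28.1 FPKM in Lv133KD and 24.6, 29.6 and 41.0 in Lv143KD (difference -0.26, interval -0.51 to -0.02), and TOP2A, topoisomerase 2, gave -0.20. Replication and mitosis genes therefore differed in opposite directions within the same pair, and no member of either list was called.

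**Figure D5:**
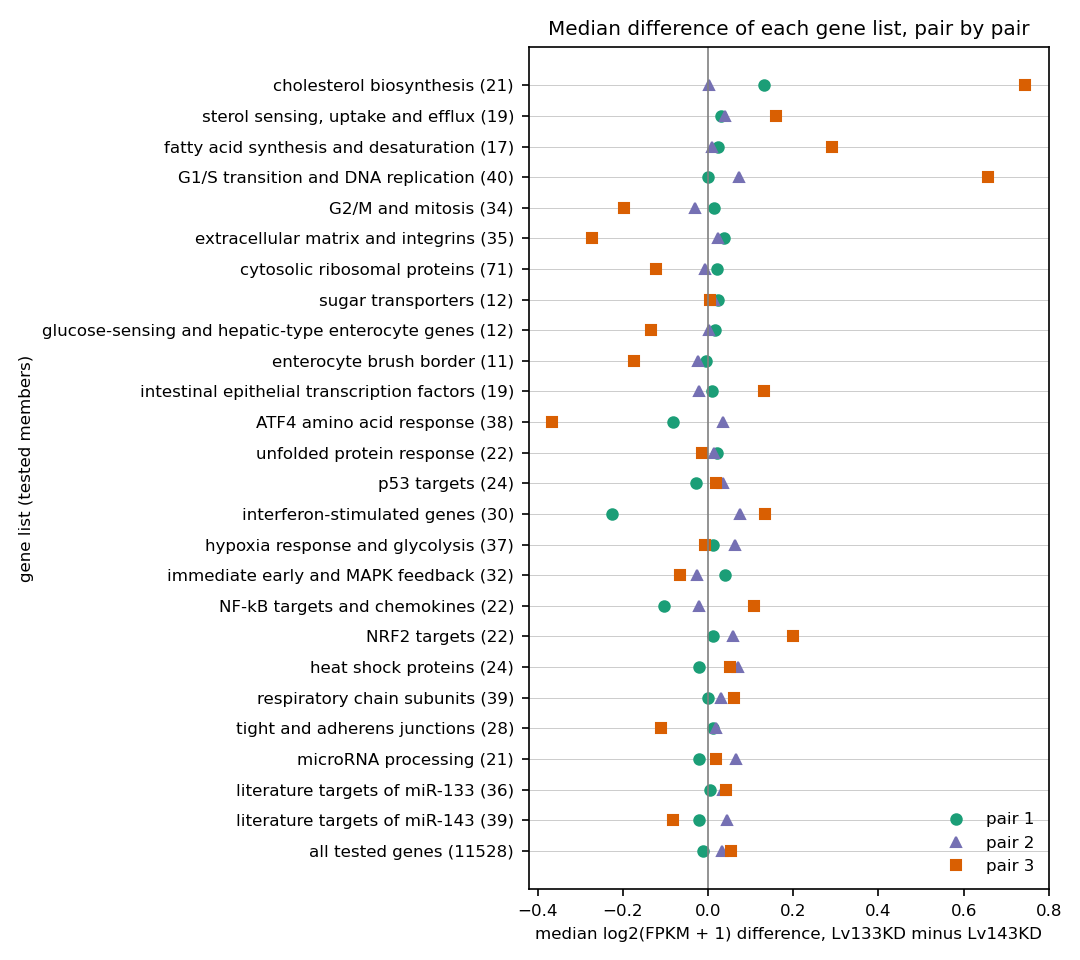
Median difference in log2(FPKM + 1), Lv133KD minus Lv143KD (horizontal axis), over the tested members of each gene list (vertical axis, number tested in brackets), 1 symbol per pair, with all tested genes in the last line. Pair 3 lies farthest out for most lists, up to 0.75 for cholesterol biosynthesis, and interferon-stimulated genes are lowest in pair 1, at -0.22.

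Glucose-responsive genes differed by less than SLC2A2 in pairs 1 and 2. TXNIP, the thioredoxin-interacting protein induced by glucose through the factor ChREBP, read 204.1, 50.1 and 193.1 FPKM in Lv133KD and 222.8, 51.9 and 554.7 in Lv143KD, and 707.4 in Lv3NC replicate 3. Pairs 1 and 2 were level and pair 3 alone differed, by -1.52. ARRDC4, its close relative and a further ChREBP target, gave -0.17, -0.10 and -0.36 (mean -0.21, interval -0.40 to -0.02), and KHK, fructokinase, 0.11, 0.11 and 0.21. Of the 12 tested genes of this list 5 lay higher and 7 lower, with a median of -0.05 and 0.01 without pair 3.

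Enterocyte genes were few and near level. Of 35 listed brush border genes 11 were tested, 2 higher and 9 lower in Lv133KD, with a median of -0.07. DPP4, a peptidase of the brush border, read 14.9, 18.8 and 16.4 FPKM in Lv133KD and 14.98, 22.0 and 19.9 in Lv143KD, and EPS8, an actin-capping protein of microvilli, gave -0.09. Of 19 intestinal transcription factors 12 lay higher and 7 lower, with a median of 0.01 (-0.02 with equal medians). GATA6 gave 0.02, 0.21 and 0.46 in the pairs, and KLF4 -0.10, -0.15 and -0.32, with levels of 19.1 and 21.4 FPKM in replicate 2 of the groups against 73.4 to 92.5 in replicates 1 and 3. KLF4 thus differed more between replicate numbers than between vectors.

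Amino acid response genes driven by ATF4 lay lower in Lv133KD in 30 of 38 members and higher in 8, with a median of -0.15. In pair 1, 33 of 38 lay lower (median -0.08), in pair 2, 25 lay higher (0.03), and in pair 3, 28 lay lower (-0.37). DDIT3, the stress factor CHOP, read 61.8, 14.5 and 69.7 FPKM in Lv133KD and 67.9, 15.5 and 98.7 in Lv143KD. SLC1A4, a carrier of neutral amino acids, read 28.8, 5.25 and 32.7 against 32.7, 5.61 and 42.2. In both genes replicate 2 was low under either vector, by more than any difference between vectors, and the list's median was -0.03 without pair 3. No member was called.

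Interferon-stimulated genes turned sign between pairs. In pair 1, 29 of 30 lay lower in Lv133KD (median -0.22), where 6273 of all 11528 genes did, but 25 lay higher in pair 2 (0.08) and 24 in pair 3 (0.13). The median of the fit was 0.01 (-0.03 with equal medians), and 0 genes were called or reached an unadjusted p under 0.05. IFIT1, an RNA-binding antiviral protein, gave -0.53, 0.18 and 0.13, and MX1, an antiviral GTPase, -0.36, 0.11 and 0.47. The list thus differed more between pairs than between vectors.

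Hypoxia and glycolysis genes showed the reverse, a shared sign in many members at small size. Of 37 tested, 15 lay higher in all 3 pairs and 5 lower in all 3, where the shares over all genes were 19% and 10.4%. BNIP3, a mitophagy receptor, read 127.2, 120.2 and 71.1 FPKM in Lv133KD and 112.5, 109.5 and 51.9 in Lv143KD (difference 0.25, interval 0.05 to 0.45), and SLC16A3, the lactate exporter MCT4, gave 0.12, 0.18 and 0.45. HIF1A, the oxygen-regulated factor itself, lay the other way, at 124.1, 121.6 and 154.2 FPKM against 134.1, 134.0 and 213.6. The median over the list was 0.02 (-0.01 with equal medians), equal to that of all genes, and 0 members were called.

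Structural genes were level in pairs 1 and 2. Of 35 extracellular matrix and integrin genes 31 lay lower in Lv133KD and 4 higher, with a median of -0.09 that became 0.03 without pair 3. ITGA2, a collagen receptor subunit, read 104.6, 104.6 and 107.5 FPKM in Lv133KD and 109.3, 105.9 and 172.2 in Lv143KD. Of 71 cytosolic ribosomal protein genes 60 lay lower and 11 higher, with a median of -0.03 and 0.01 without pair 3, and the whole list stayed within -0.10 to 0.10. Keratin 19 (KRT19), an epithelial marker, read 543.1, 590.0 and 467.3 FPKM in Lv133KD and 484.0, 564.2 and 239.5 in Lv143KD, low in Lv143KD replicate 3 and in Lv3NC replicate 3 (210.7). Other epithelial markers were split in Lv143KD replicate 3. EPCAM stood at 311.4 FPKM there, CLDN7 at 9.23 and ESRP1 at 14.4, the highest of the 6 in each case. KRT8 at 520.0 FPKM and VIL1 at 0.98 were, like KRT19, the lowest of the 6. CLDN4, KRT18, CDH1 and CDX2 lay between. The summed epithelial list spanned 2011.2 to 2513.4 FPKM in Lv133KD and 1705.3 to 2451.0 in Lv143KD. The part of these markers in the lists that rest on pair 3 was not tested.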

How the data were processed

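RNA sequencing was made of total RNA, per the labels' protocols. FPKM per gene was deposited by the authors with 2 decimals, in one table of 9 knockdown libraries and another of 6 overexpression libraries, per the file headers. The submitters' processing notes name the build Sscrofa 11.1. The aligner, counting tool, annotation version and strand use were not given in the labels or headers used here. Symbols and 1-based coordinates came from a RefSeq gene table of that build and matched 18618 of 19000 genes. FPKM fixes no depth, so precision is given by replicates.

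The analysis used log2(FPKM + 1), a scale that understates differences at low levels. Genes that reached 1 FPKM in 3 or more of the 6 libraries were fitted with limma 3.58.1 in R 4.3.3 (trended empirical Bayes variance, replicate number as a block, two-sided, Benjamini-Hochberg adjustment over all tested genes, threshold 0.05), with 2 residual and about 5.83 total degrees of freedom. The fit was checked on simulated data. The simulated libraries had the same spread in every pair, unlike pair 3 here, so the check does not cover that feature. The labels do not say what a replicate number marks, nor whether libraries of a group are separate cultures. The p-values therefore cover only the spread among these libraries, which may be technical. Deviations from the group means of same-numbered libraries correlated at 0.53, 0.85 and 0.60, and the limit for pairing was 0.1. Different numbers gave -0.67 to 0.24.

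The comparison, its genes and its lists were chosen with earlier results of these data known. Named genes were the 10 smallest p-values and the largest non-overlapping differences with a shared sign among genes averaging 5 FPKM or more. To these came the members of each described list with the largest differences among those with a shared sign in the pairs. Genes picked from earlier results or the literature, and the 5 genes most like SLC2A2, were also named. TXNIP, HMGCS1, MSMO1, SQLE, EIF5A2, TNIK, TGFB1, KRT19 and members named by list without a shared sign were added after their values were seen. The 27 lists hold 847 symbols, of which 817 were found and 709 tested. Predicted genes are named by at most 2 identifiers. Some genes picked by these rules are not reported here.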

Additional observations from a re-analysis of the deposited data

How the results depend on the processing

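Calls stayed at 0 under pseudocounts of 0.1 and 5, no filter, a filter of 5 FPKM in all 6 libraries, FPKM rescaled to an equal sum, equal medians, no variance trend, all 9 libraries with or without the block, and no replicate block. Leaving out libraries gave 0 to 7 calls, 7 without replicate 3, 1 without replicate 1 and 1 without Lv143KD replicate 1. The count at an unadjusted p under 0.05, 268 with the replicate block, was 22 with no replicate block, 16 with no replicate block over 9 libraries, 520 with no filter, 169 with the filter of 5 FPKM and 7 to 669 when libraries were left out. Each single library was left out of the fit without the block, which leaves the replicate numbers unbalanced between the vectors. The lone number's level then enters the difference, and genes that vary by replicate number can turn sign by construction. Equal medians moved the share of genes higher in Lv133KD from 58.5% to 45.0%.

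Of 94 genes followed, 66 kept their direction under every one of the 19 alternatives that tested them. With equal medians 5 genes whose difference was near 0 turned: CDC42 -0.022, RHOA -0.0067, ERBB3 -0.032, FOPNL -0.034, WIF1 -0.015. When libraries were left out, these genes turned, with log2 differences of CCDC167 -0.015 to 0.64, TK1 -0.0012 to 0.96, MCM5 -0.048 to 0.95, TGFBI -0.32 to 0.064, TXNIP -1.48 to 0.22, ARRDC4 -0.60 to 0.12, EPS8 -0.22 to 0.0043, KLF4 -0.84 to 0.44, DDIT3 -1.02 to 0.46, SLC1A4 -1.05 to 0.57, GARS -0.60 to 0.14, BNIP3 -0.11 to 0.51, SLC16A3 -0.079 to 0.48, RUNX2 -0.52 to 0.060, MIB1 -0.056 to 0.043, MIB2 -0.015 to 0.24, EGFR -0.21 to 0.011, CDC42 -0.032 to 0.058, RHOA -0.0089 to 0.087, HK2 -0.098 to 0.29, ERBB3 -0.056 to 0.049, FOPNL -0.11 to 0.10, ATP6V1H -0.021 to 0.0054, WIF1 -0.069 to 0.10, MT-2B -0.42 to 0.38, EIF5A2 -0.13 to 0.049, TGFB1 -0.10 to 0.027 and CCL20 -0.73 to 0.47. The median SE of 0.08 and the unknown depth limit what can be resolved, and genes under about 5 FPKM carry the added limit of the pseudocount.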

Other observations

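Further gene groups were described in the same way, and 0 of their members were called. NRF2 targets of antioxidant defence had 15 of 22 members higher in Lv133KD and a median log2 difference of 0.09, 0.03 without pair 3. PGD, an enzyme of the pentose phosphate route, gave 0.05, 0.20 and 1.21 in the pairs, and NQO1, a quinone reductase, 0.07, 0.10 and 0.50. Heat shock proteins had 15 of 24 higher and a median of 0.03 (-0.01 with equal medians), with HSPA8, the constitutive HSP70, at 0.20, 0.12 and 1.11. Unfolded protein response genes split within pair 3: the chaperone HSPA5 gave 0.04, -0.08 and -0.99 and HERPUD1 0.06, -0.08 and -1.28, while MANF gave 0.02, 0.04 and 0.46. Respiratory chain subunits had 33 of 39 members higher with a median of only 0.03, and equal medians turned that to -0.01.

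Junction genes had 12 of 28 members higher and 16 lower, with a median of -0.03. ESRP1, an epithelial splicing factor, gave 0.01, -0.16 and -0.71, and CDH1 -0.05, 0.01 and -0.20. NF-kB targets had 10 of 22 higher. CCL5, a chemokine, gave -0.48, -0.12 and -0.31, a sign shared by the pairs, whereas IL1A, CXCL2 and CSF1, secreted signals of inflammation, differed past 2-fold in pair 3 alone, by 1.06, 1.15 and 1.2. Targets of p53 were split evenly, 12 higher and 12 lower.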
